A study of Mus musculus with 4 samples.

Results

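The 10 genes described here encode core parts of the NF-κB pathway and of the TRAF adaptors that feed it: Rela, Relb, Nfkb1, Nfkb2, Nfkbia, Tnfaip3, Birc3, Traf1, Traf2 and Traf6. They were taken by symbol from a table of 56748 genes, each symbol matched a single row, and all 10 passed the filter on low counts that left 15320 genes for testing. The counts came from bulk RNA sequencing of lungs carrying metastases of 4T1, a mouse triple-negative breast cancer (TNBC) line, in 2 saline and 2 ADC/cmLumiOpto samples, where the methods speak of 4 per group. Female BALB/cJ mice, 7 weeks of age, had received 2000000 luciferase-expressing 4T1-FLuc cells by tail vein, and both groups therefore carried the same tumor. The treated mice were given an antibody-drug conjugate (ADC) of anti-CD276 antibody and mertansine (DM1), which blocks microtubules, together with cmLumiOpto, a gene therapy that depolarizes mitochondria when its luminescent substrate ViviRen is supplied. The study's methods give 8 mg/kg of the conjugate and 2 mg/kg of ViviRen. The labels give 16 mg/kg, write the treatment as cmLumi-Olap & CD276-DM1, name PBS as the control, put the harvest at 3 weeks and speak of tumor cells, where the methods speak of dissociated lung tissue.

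Total counts ran from 15263375 to 19675436 per sample. Counts per 1000000 counts of the library after TMM normalization (CPM) are used throughout, and 3 counts correspond to between 0.146 and 0.202 CPM, a floor for counting error only. With 2 samples against 2, no exact two-sided permutation test can give a p under 0.333, and each p below comes from a model of the whole table. The 7 alveolar markers summed to 1610 and 347 CPM in the saline samples and to 5926 and 4987 CPM in the treated samples, and 7 epithelial and tumor markers to between 2873 and 3353 CPM in all 4. Lung tissue and epithelial cells were thus both present in every sample. In bulk RNA, fewer cells of a type and less RNA per cell cannot be told apart.

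NF-κB is a family of dimeric transcription factors that share the Rel homology domain and wait in the cytoplasm until a signal frees them. In the canonical route, tumor necrosis factor receptors, interleukin-1 receptors and Toll-like receptors recruit TRAF adaptors, which activate the IKK kinases, and these mark the inhibitor IκBα for destruction so that RelA and p50 enter the nucleus. In the non-canonical route, receptors such as the lymphotoxin-β receptor stabilize the kinase NIK, p100 is processed to p52, and p52 works with RelB. Several of the genes are themselves well known NF-κB targets, among them Nfkbia, Tnfaip3, Birc3, Traf1, Nfkb2 and Relb, which gives the pathway feedback loops.

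The promoter windows of RefSeq (build GRCm38.p6, 250 bases before to 50 after a start) were searched on both strands for the κB consensus, the sequence NF-κB dimers bind. A window was given for 8 of the 10 genes, all but Relb and Nfkb1, and 3 of the 8 held a match: Nfkbia, Tnfaip3 and Nfkb2. Over all genes with a window, 9.55% (2581 of 27025) held one. The 130 bases before the first listed start are shown for these genes because their matches lie beside the start, and for Traf6 because it had the largest difference between the groups and no match in its window. Capitals mark the matches. The regions are chr12:55492648-55492777 on the minus strand for Nfkbia, chr10:19015411-19015540 on the minus strand for Tnfaip3, chr19:46304607-46304736 on the plus strand for Nfkb2 and chr2:101678290-101678419 on the plus strand for Traf6.
Nfkbia: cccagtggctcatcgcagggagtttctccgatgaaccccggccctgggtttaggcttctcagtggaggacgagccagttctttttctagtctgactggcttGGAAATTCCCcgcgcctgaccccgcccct
Tnfaip3: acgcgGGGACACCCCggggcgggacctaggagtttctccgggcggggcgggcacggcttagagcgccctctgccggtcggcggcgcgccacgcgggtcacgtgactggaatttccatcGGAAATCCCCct
Nfkb2: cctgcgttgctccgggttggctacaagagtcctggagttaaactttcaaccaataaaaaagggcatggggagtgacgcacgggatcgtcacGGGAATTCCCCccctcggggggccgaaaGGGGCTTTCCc
Traf6: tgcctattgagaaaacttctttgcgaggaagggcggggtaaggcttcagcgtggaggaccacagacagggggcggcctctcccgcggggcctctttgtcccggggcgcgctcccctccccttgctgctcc
In Nfkbia the match begins 29 bases before the start. Tnfaip3 has matches that begin 125 and 12 bases before it. In the stretch shown for Nfkb2 the matches begin 39, 38 and 11 bases before the start, and the first pair overlap; the windows of its other starts hold further matches. The bases after the listed start opened a transcript of GENCODE M21 (GRCm38) for Nfkbia and Tnfaip3, but not for Nfkb2 or Traf6. For Nfkb2 and Traf6 the windows and distances thus rest on the RefSeq start alone. A match is a sequence of letters and was not tested for binding here.

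Between the groups, Traf6 was the member with the largest difference, lower after ADC/cmLumiOpto, whereas Traf1 and Traf2 were higher and the 4 Rel family genes differed by at most 0.32 on the log2 scale in either direction. The quasi-likelihood test of edgeR put 0 of the 10 genes under an adjusted 0.05, as for all 15320 genes tested (0%), with 0.116 the smallest adjusted p. Taking unadjusted p under 0.05, 2 members were higher (Traf1 and Traf2) against 11.0% of all genes, and 1 was lower (Traf6) against 12.2%. The edgeR exact test and DESeq2 each gave 1 member an adjusted p under 0.05, Traf6 in both. The shares beside it were 7.64% of all genes in the exact test and 9.99% of the 13537 genes that DESeq2 gave an adjusted p. Dropping the filter on low counts gave the same single gene against 8.84% of 25563 genes. Both treated samples lay above both saline samples for 4 members (Relb, Nfkbia, Traf1 and Traf2), against 28.1% of all genes, and below them for 3 members (Rela, Tnfaip3 and Traf6), against 28.8%. With 10 members, these counts do not set the genes apart from the rest of the table. The median log2 fold change of the 10 genes was 0.13, beside 0.028 for all genes tested, and 5 members were above 0 and 5 below.

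**Figure D1:**
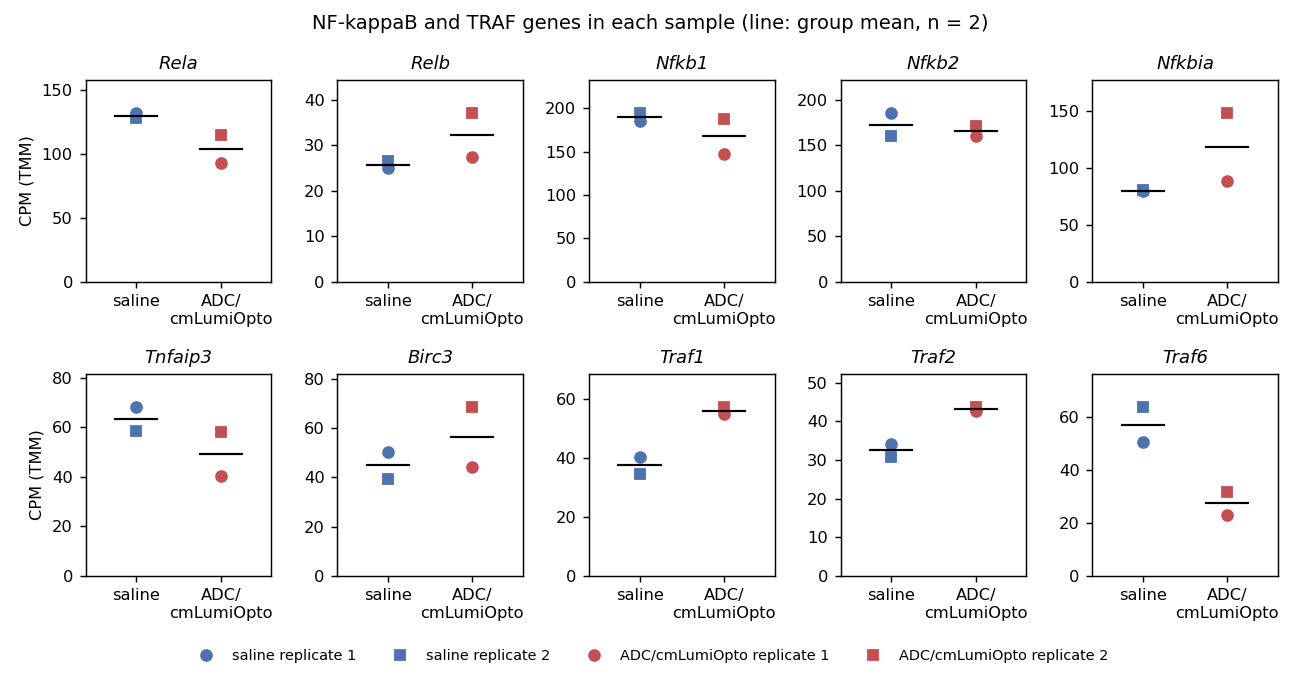
CPM after TMM normalization (vertical axis, from 0) of each gene in the 2 saline samples (blue) and the 2 ADC/cmLumiOpto samples (red); circles are replicate 1, squares replicate 2, and lines the group means. Traf6 lies lower and Traf1 and Traf2 lie higher in both treated samples, and Nfkbia and Birc3 are highest in treated replicate 2.

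The TRAF proteins are adaptors and ubiquitin ligases that bind receptor tails. Traf6, the ubiquitin ligase of interleukin-1 and Toll-like receptor signaling (ENSMUSG00000027164, chromosome 2, 101508774 to 101532014 in mm39, the build of all gene positions given here), was at 50.5 and 63.7 CPM in the saline samples and at 22.9 and 31.8 CPM in the treated samples. The groups did not overlap, and the highest treated value was well under the lowest saline value. The log2 fold change was -1.06 (standard error 0.23, edgeR's quasi-likelihood test, adjusted p = 0.116), a fold of 0.479, and 2.60% of the genes tested had a lower value. With each sample left out in turn it ranged from -1.32 to -0.84. The adjusted p was 0.00576 in the edgeR exact test, 0.00452 in DESeq2 and 9.68e-05 without the filter; the alternatives spanned 9.68e-05 to 0.446.

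Traf1, a TRAF without a RING domain that is induced by NF-κB (ENSMUSG00000026875, chromosome 2, 34831762 to 34851784), was at 40.3 and 34.4 CPM in the saline samples and at 54.8 and 57.1 CPM in the treated samples. Both treated values were above both saline values and close to each other. The log2 fold change was 0.58 (standard error 0.17, edgeR's quasi-likelihood test, adjusted p = 0.136), with an unadjusted p of 0.0118. Traf2, the adaptor of tumor necrosis factor receptors that holds Traf1 and the cIAP ligases (ENSMUSG00000026942, chromosome 2, 25407994 to 25436952), was at 34.3 and 30.7 CPM in the saline samples and at 42.8 and 43.7 CPM after treatment. Here too the groups were apart, and the treated replicates differed by a factor of 1.02. Its log2 fold change was 0.41 (standard error 0.17, edgeR's quasi-likelihood test, adjusted p = 0.203), with an unadjusted p of 0.0439. Leaving out saline replicate 2 put Traf1 at an unadjusted p of 0.0806 and Traf2 at 0.192, and left Traf6 as the only member under 0.05. Traf2 was above 0.05 with any of the 4 samples left out, and also in DESeq2, in the exact test, without the filter and with the replicate block.

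The Rel family genes encode the DNA-binding subunits. Rela, the activating subunit of the canonical dimer (ENSMUSG00000024927, chromosome 19, 5687511 to 5698158), was at 131.4 and 127.5 CPM in the saline samples and at 93.0 and 114.5 CPM in the treated samples. Every treated value was below every saline value, and the log2 fold change was -0.32 (standard error 0.18, edgeR's quasi-likelihood test, adjusted p = 0.311). Relb, the subunit of the non-canonical dimer (ENSMUSG00000002983, chromosome 7, 19340142 to 19363363), was the lowest of the Rel family genes in CPM, at 24.9 and 26.6 under saline and 27.4 and 37.1 under treatment. The lower treated value was just above the higher saline value, and the log2 fold change was 0.32 (standard error 0.21, edgeR's quasi-likelihood test, adjusted p = 0.390).

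Nfkb1, which encodes p105 and its product p50 (ENSMUSG00000028163, chromosome 3, 135290416 to 135397308), was at 185 and 194 CPM in the saline samples and at 148 and 188 CPM in the treated samples. Treated replicate 2 lay between the saline values, so the groups overlapped. The log2 fold change of -0.18 (standard error 0.18) turned to 0.12 when a trend on gene length was removed. Nfkb2, which encodes p100 and its product p52 (ENSMUSG00000025225, chromosome 19, 46292759 to 46300824), was at 185 and 161 CPM in the saline samples and at 160 and 171 CPM in the treated samples. The groups overlapped, and the log2 fold change of -0.06 (standard error 0.16) became 0.04 without saline replicate 1 and 0.02 with upper-quartile normalization. The adjusted p values in edgeR's quasi-likelihood test were 0.578 for Nfkb1 and 0.845 for Nfkb2. The protein-coding gene Psd (138 to 285 counts per sample) and a noncoding RNA gene (58 to 138 counts) overlap Nfkb2 on the other strand, against 2385 to 3504 counts for Nfkb2 itself. Whether counting used strand is not given in the sources used here.

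The remaining genes are the pathway's brakes and survival arm. Nfkbia, which encodes IκBα (ENSMUSG00000021025, chromosome 12, 55536195 to 55539432), was at 79.3 and 81.0 CPM in the saline samples and at 88.2 and 148 CPM in the treated samples. The saline values were nearly equal, whereas treated replicate 2 was 1.67-fold above treated replicate 1. The log2 fold change was 0.56 (standard error 0.26, edgeR's quasi-likelihood test, adjusted p = 0.247), and without treated replicate 2 it was 0.14. Tnfaip3, which encodes the ubiquitin-editing inhibitor A20 (ENSMUSG00000019850, chromosome 10, 18876658 to 18891405), was at 68.1 and 58.6 CPM in the saline samples and at 40.4 and 58.0 CPM in the treated samples. Treated replicate 2 was just under the lower saline value. Its log2 fold change was -0.37 (standard error 0.22, edgeR's quasi-likelihood test, adjusted p = 0.348), and without that sample it was -0.65.

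Birc3, which encodes the ubiquitin ligase cIAP2 that protects cells from death receptor signals (ENSMUSG00000032000, chromosome 9, 7848700 to 7873187), was at 50.5 and 39.2 CPM in the saline samples and at 44.1 and 68.6 CPM in the treated samples. The groups overlapped. The log2 fold change of 0.33 (standard error 0.26, edgeR's quasi-likelihood test, adjusted p = 0.468) became -0.03 without treated replicate 2. Of the genes with a κB match beside the start, Nfkbia was thus above, Tnfaip3 below and Nfkb2 overlapping with the saline samples.

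**Figure D2:**
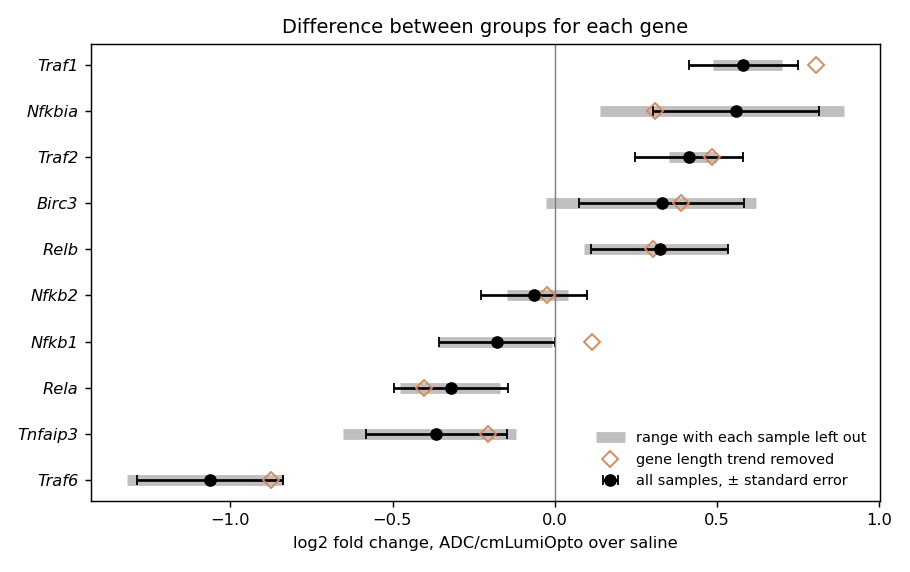
Log2 fold change of ADC/cmLumiOpto over saline (horizontal axis) for the 10 genes, as the estimate from all 4 samples with its standard error (black), the range with each sample left out in turn (gray) and the estimate with the gene length trend removed (orange diamonds). Traf6 stays below -0.83 in all of these, and the gray bars of Nfkb2 and Birc3 cross 0.

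Longer genes were lower after treatment across all genes tested (Spearman's rho between length and log2 fold change -0.340, taken across genes and so not across independent replicates), and the listed gene lengths of the members run from 1610 bases for Nfkbia to 12061 for Nfkb1. With this trend removed, the log2 fold change of Traf6 (7883 bases) was -0.88 and that of Traf1 (8819 bases) was 0.81. Nfkbia went to 0.31. The part of gene length in these differences was not tested further.

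Ratios of counts within a sample do not depend on how libraries are scaled to each other. The Relb to Rela ratio was 0.190 and 0.209 under saline and 0.295 and 0.324 under treatment. The groups were apart, with a difference in mean log2 ratio of 0.63 and SDs of 0.097 and 0.094 (n = 2 each). Nfkbia to Rela, the inhibitor gene over the gene of the subunit it binds, stood at 0.604 and 0.635 in the saline samples and at 0.949 and 1.29 in the treated samples, a log2 difference of 0.84. By contrast, Nfkb2 to Nfkb1 overlapped, at 0.999 and 0.827 against 1.08 and 0.911. Among the adaptors, Traf6 outnumbered Traf2 in the saline samples, with 1.47 and 2.08 counts for each Traf2 count, and was outnumbered by it in the treated samples, at 0.535 and 0.727. This was the largest shift among the 5 ratios examined, -1.49 on the log2 scale. Traf1 to Traf2 moved least among those whose groups were apart, from 1.18 and 1.12 to 1.28 and 1.31. None of the ratios takes gene length into account. Per kilobase, Traf6 was below Traf2 in saline replicate 1 (6.41 and 6.72 CPM) and above it in saline replicate 2 (8.08 and 6.01 CPM). In both treated samples it was below Traf2 per kilobase as well. An exact permutation test of any of the 5 ratios cannot give a two-sided p under 0.333.

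**Figure D3:**
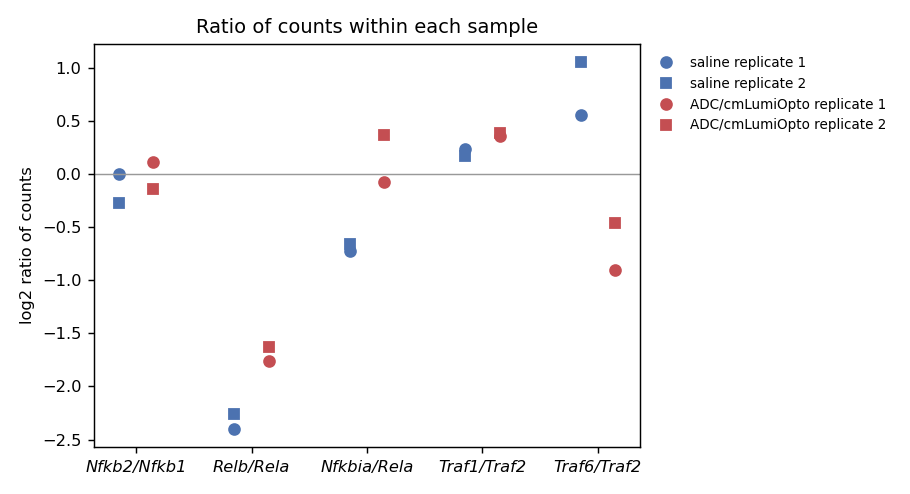
Log2 ratio of the counts of 2 genes within each sample (vertical axis) for 5 pairs of genes; blue marks saline, red ADC/cmLumiOpto, circles replicate 1 and squares replicate 2. The Relb/Rela and Nfkbia/Rela ratios are higher and Traf6/Traf2 lower in both treated samples, and Nfkb2/Nfkb1 overlaps between the groups.

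The treated replicates differed from each other in a shared direction. All 10 members were higher in ADC/cmLumiOpto replicate 2 than in replicate 1, against 52.0% of all genes tested, with a median difference of 0.39 in log2 CPM, beside 0.020 over all genes. The widest gaps were those of Nfkbia (0.74) and Birc3 (0.64), and the narrowest were those of Traf1 (0.058) and Traf2 (0.030). In the saline group, 6 members were lower in replicate 2. With upper-quartile normalization 9 of 10 members were higher in treated replicate 2, and with the gene length trend removed 8 of 10. For Rela, Nfkb1, Nfkb2, Tnfaip3, Birc3, Nfkbia and Relb the gap between the treated replicates was close to or above the difference between the group means.

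Levels of leukocyte markers also differed between the treated libraries. The 6 neutrophil markers (S100a8, S100a9, Ly6g, Retnlg, Cxcr2 and Csf3r) summed to 1125 and 464 CPM in the saline samples and to 1141 and 7853 CPM in the treated samples, so treated replicate 2 stood far above the other 3. All 6 had counts in both groups. The 5 pan-leukocyte markers summed to 686 and 429 CPM in the saline samples and 872 and 1130 CPM after treatment, and all 5 had a positive log2 fold change. The 6 fibroblast markers were lower, with sums of 5071 and 3466 CPM in the saline samples against 1722 and 1397 CPM. T cell markers (6 genes) summed to 41.7 and 15.4 against 84.5 and 36.6 CPM, and macrophage markers (7 genes) to 1655 and 1216 against 2110 and 1495 CPM. The part of cell composition in the values of the 10 genes was not tested.

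**Figure D4:**
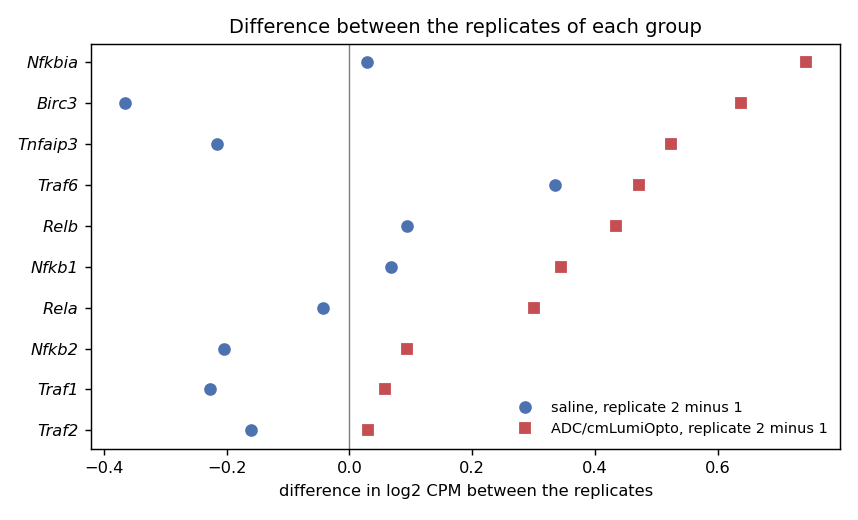
Difference in log2 CPM between replicate 2 and replicate 1 of each group (horizontal axis) for the 10 genes, with saline as blue circles and ADC/cmLumiOpto as red squares. All treated differences are above 0, up to 0.74 for Nfkbia, whereas 6 of the 10 saline differences are below 0.

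Per kilobase of listed gene length, Nfkbia had the highest level in the saline samples (49.8 CPM per kb), followed by Rela (42.1), Nfkb2 (37.7) and Nfkb1 (15.7). The remaining genes lay between 4.24 CPM per kb for Traf1 and 8.96 for Birc3. Neighbors in this order whose samples overlapped were Birc3 and Tnfaip3, Traf6 and Relb, and Relb and Traf2. In the treated samples Nfkbia was again first (73.3 CPM per kb), Nfkb2 (36.1) and Rela (33.8) overlapped, and Traf6 (3.47) came last, below Traf1 (6.34). Traf6 was thus seventh of the members in level per length in the saline group and the lowest in the treated group, and no sample of Traf1 overlapped with it after treatment.

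The rest of the pathway was followed in 105 further genes in 7 lists by role, of which 102 passed the filter. The quasi-likelihood test of edgeR put 0 of the 102 under an adjusted 0.05, while 13 higher and 7 lower genes had an unadjusted p under 0.05, beside 11.0% and 12.2% of all genes. In the edgeR exact test 10 of the 102 had an adjusted p under 0.05, 8 higher and 2 lower, beside 7.64% of all genes. Of the 13 higher genes, 9 were ligands or targets, lists that held 9 and 29 of the 102 genes tested. Of the 7 lower genes, 4 were targets and 3 were TRAF genes or kinase adaptors.

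Upstream, the 10 ligand genes (9 tested) had a median log2 fold change of 0.88. At an unadjusted p under 0.05 in edgeR's quasi-likelihood test, 3 were higher and 0 lower, beside 11.0% and 12.2% of all genes. Ltb, a chain of the lymphotoxin ligand that drives the non-canonical route, had 184 and 38 counts under saline and 471 and 775 under treatment, which gave a log2 fold change of 2.19 with standard error 0.62. The saline samples themselves lay far apart, at 11.5 and 2.56 CPM. Without saline replicate 1 the log2 fold change of Ltb was 3.65 and its adjusted p in edgeR 0.00973, and without saline replicate 2 they were 1.501 and 0.338. Tnfsf14, which encodes the ligand LIGHT, had a log2 fold change of 1.61 and was at 6.46 and 16.6 CPM in the treated samples, against 4.31 and 3.24 in the saline samples. Without treated replicate 2 it was 0.77. Il1b, the cytokine that signals through Traf6, was at 24.3 and 13.3 CPM under saline and 40.8 and 39.7 CPM under treatment, with a log2 fold change of 1.10. Their adjusted p values in edgeR's quasi-likelihood test were 0.131, 0.143 and 0.1246, and those in the exact test 0.0196, 0.0498 and 0.0252. Over the alternatives their lowest and highest values were 6.50e-12 and 0.488. Cd40lg was at 0, 0, 6 and 0 counts and was not tested.

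Of the 25 receptor and adaptor genes (24 tested, median log2 fold change 0.15), Tlr2, a Toll-like receptor for bacterial lipoproteins, was at 48.3 and 35.9 CPM under saline and 77.5 and 56.0 CPM under treatment, which gave a log2 fold change of 0.67. Tnfrsf4, the T cell costimulatory receptor OX40, was at 1.25. In edgeR's quasi-likelihood test the adjusted p values of Tlr2 and Tnfrsf4 were 0.170 and 0.243.

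The other TRAF, IAP and linear ubiquitin ligase genes (9 genes) had a median log2 fold change of -0.08, with values in both directions. Traf4 had the smallest p of this list and was at 70.1 and 74.8 CPM in the saline samples and at 39.9 and 45.3 CPM in the treated samples, which gave a log2 fold change of -0.77 (standard error 0.16). Traf3, which keeps the kinase NIK low in resting cells, was at 85.1 and 77.5 CPM against 53.2 and 62.3 CPM, a log2 fold change of -0.49 (standard error 0.17). Traf5 was higher, at 7.88 and 5.53 against 12.5 and 10.9 CPM, a log2 fold change of 0.81 (standard error 0.31). None of these groups overlapped. In edgeR's quasi-likelihood test their adjusted p values were 0.116, 0.167 and 0.187, and Traf4 had 0.0186 in the exact test and 0.00746 to 0.451 over the alternatives.

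The IKK complex and the kinases and adaptors upstream of it made up a list of 11 genes (median -0.09). The lowest p among them belonged to Tab3, an adaptor that links ubiquitin chains made by Traf6 to the kinase TAK1. Tab3 was at 38.6 and 47.5 CPM under saline and 20.4 and 24.8 CPM under treatment, which gave a log2 fold change of -0.93 (standard error 0.20, edgeR's quasi-likelihood test, adjusted p = 0.116). Map3k7, which encodes TAK1 itself, had a log2 fold change of -0.37, and Tab2, which encodes another of its adaptors, had -0.39, with adjusted p values of 0.240 and 0.267 in that test. The adaptor gene Tab1, named after its values were seen, overlapped between the groups, with a log2 fold change of -0.05.

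The 6 further subunit and IκB genes (median 0.27) included Nfkbid at 1.17, Bcl3 at 0.31 and Nfkbib at 0.26 on the log2 scale, with adjusted p values of 0.305, 0.443 and 0.484 in edgeR's quasi-likelihood test. Nfkbid followed treated replicate 2, with 12 and 15 counts under saline and 20 and 58 under treatment, and without that sample its log2 fold change was 0.36. The 14 deubiquitinases and regulators that bind TRAF or NF-κB proteins had a median of -0.06. The smallest p among them was that of Traf3ip3, whose product binds Traf3 and is expressed in lymphocytes, with 36 and 19 counts under saline and 113 and 140 under treatment, which gave a log2 fold change of 1.90 (standard error 0.42, edgeR's quasi-likelihood test, adjusted p = 0.116). The next by p, Tnip2 and Traf3ip2, were at 0.42 and -0.33, with adjusted p values of 0.310 and 0.419.

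The 30 target genes (29 tested) had a median log2 fold change of 0.09. At an unadjusted p under 0.05 in edgeR's quasi-likelihood test, 6 were higher and 4 lower, beside 11.0% and 12.2% of all genes. Ccl2, a chemokine for monocytes, was at 9.002 and 7.55 CPM in the saline samples and at 26.5 and 20.3 CPM in the treated samples, which gave a log2 fold change of 1.498 (standard error 0.26). Gadd45b, a stress gene that limits JNK signaling, was at 9.502 and 7.15 CPM under saline and 21.0 and 27.2 CPM under treatment, which gave a log2 fold change of 1.53 (standard error 0.27). Bcl2a1b, an anti-apoptotic BCL2 gene that belongs to a family of near-identical copies and is therefore uncertain in count, had a log2 fold change of 1.33. Ccl2 and Gadd45b both stood at an adjusted 0.116 by the quasi-likelihood test of edgeR, and in the exact test at 0.000635 and 0.000664, within 2.07e-05 to 0.369 over the alternatives. The 4 lower genes, named here after their values were seen, were the adhesion genes Sele and Vcam1, the protease gene Plau and Tnfaip2, with log2 fold changes of -1.74, -0.44, -0.40 and -0.42. A κB match lay in a promoter window of 11 of the 21 target genes with a window (52.4%), beside 9.55% of all genes with a window. This was not particular to the targets. In the other lists the share ran from 11.1% (1 of 9) for the IKK list to 80% (4 of 5) for the subunit and IκB list. Ccl20 had at most 1 count in any sample and was not tested.

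**Figure D5:**
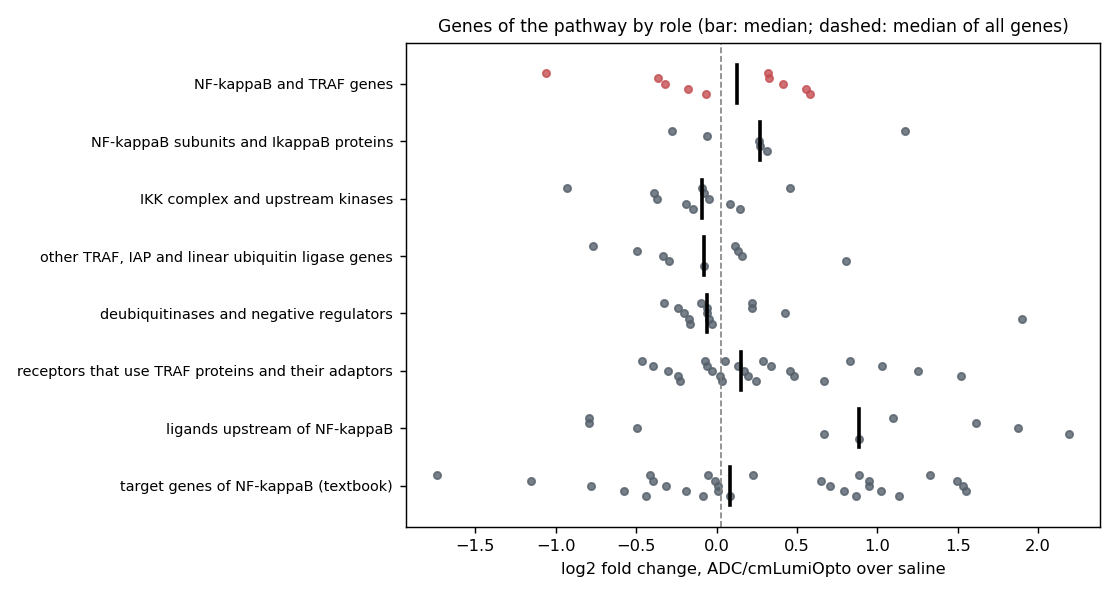
Log2 fold change of ADC/cmLumiOpto over saline (horizontal axis) for each tested gene in 8 lists by role; each point is a gene, black bars are list medians and the dashed line is the median of all genes tested, 0.028. The ligand list has the highest median, 0.88, and the other medians lie between -0.09 and 0.27.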

How the data were processed

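Poly(A)-selected RNA from the 4 samples was sequenced by the authors on an Illumina platform and aligned with HISAT2. The authors deposited raw counts, whole numbers of reads per Ensembl gene without normalization, and the counting program is not given in the sources used here. The study's methods name GRCm38, the submitters' processing notes list mm39. Of 52073 identifiers shared with GENCODE M21 (GRCm38), 1435 had the same start and end and none of the 10 members did, so gene positions are given as deposited, as mm39, and promoter sequences separately in GRCm38.p6. Gene lengths are those deposited with the counts.

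The tests used edgeR 4.0.16 under R 4.3.3: filterByExpr (minimum count 10, minimum total 15), TMM, glmQLFit and glmQLFTest, with Benjamini-Hochberg adjustment over all genes tested and a threshold of 0.05. Standard errors are the log2 fold change divided by the square root of F. The labels number the samples but do not tie them to mice or batches, so p-values measure the spread between these samples. The samples of a group differed beyond sampling noise (chi-square per degree of freedom 26.1 and 57.2). The members and all lists were chosen with earlier results of these data known. Beside the members, the genes named are the 3 with the smallest p in each list and those with 3 or fewer counts in each sample of a group. The result for 1 gene that this rule names is not reported here. The list of deubiquitinases and negative regulators also holds genes that do not encode deubiquitinases. Among these are Traf3ip2 and Traf3ip3, listed because their products bind TRAF or pathway proteins. Alternatives were DESeq2 1.42.0, other scalings, tests and filters, a lowess (span 0.3) correction for gene length, a replicate block and each sample left out, the lone sample then being assumed to vary like the other group. On simulated counts for these 15320 genes and 2 samples per group, the quasi-likelihood test recovered 100% of 200 genes changed by 2 on the log2 scale. Every simulated gene had the same dispersion, and the changed genes were drawn from those with higher counts. The simulation therefore cannot give the recovery at the spread of these samples or for changes as small as those of the members.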

Additional observations from a re-analysis of the deposited data

How the results depend on the processing

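For the 10 genes, 132 of 140 results from 14 alternatives kept their direction and side of the threshold, 4 passed it and 4 reversed. The reversals were Nfkb1 at 0.12 with the gene length trend removed, Nfkb2 at 0.02 with upper-quartile normalization and at 0.042 without saline replicate 1 (range -0.147 to 0.042 with a sample left out), and Birc3 at -0.026 without ADC/cmLumiOpto replicate 2 (range -0.026 to 0.621). In the main fit 0 members passed an adjusted p of 0.05. With DESeq2, the edgeR exact test, no filter and the replicate block 1 did. The cause of this change was not tested, and the share of all genes with the replicate block was not computed. With a sample left out, 1 lone sample is compared with the 2 of the other group. Members with all remaining treated values below all remaining saline values then numbered 3 to 5, and those above 4 to 5. A lone sample clears the other group more easily, so these counts cannot be set beside those from 2 samples against 2. The share of all genes for them is not given here. The median log2 fold change of the members was -0.068 to 0.214 with a sample left out, lowest without ADC/cmLumiOpto replicate 2. Of the other pathway genes, 10 passed an adjusted p of 0.05 with DESeq2 (9.99% of all genes did), 10 with the exact test (7.64%), 23 without the filter (8.84%), 6 with the replicate block and 0 to 4 with a sample left out, and 35 without the filter and 12 to 25 with a sample left out had an unadjusted p under 0.05. Same-numbered samples share only a number: their deviations from the group means correlated at 0.103 over 15212 genes, and with the block Traf6 was at -1.07 (adjusted p = 0.0250 in edgeR). No scaling moved the median of all genes by over 0.084. Each member had at least 395 counts in every sample.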
